A study of Mus musculus with 3 samples.

Results

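The 9 genes described here are Pou3f4, Tbx18, Otor, Col1a2, Col3a1, Postn, Dcn, Bgn and Mgp, proposed together as factors and matrix genes of the otic mesenchyme, the connective tissue that surrounds the sensory epithelium of the cochlea. They are 9 of the 31053 genes in the count tables and were chosen by name, with earlier results of these data known. Their rule had 2 parts: whether they were found together in cells low in Epcam, and what level they had in Epcam-positive cells, taken as a measure of background RNA. Epcam encodes an adhesion molecule of epithelial cells, and cells with no count of it were set apart as Epcam-low. That class is not a purely non-epithelial one, since it also took in hair cell-like and shallow cells, as given below.

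Cells came from cochlear organoids of C57BL/6 mice, which are 3D cultures grown from progenitor cells marked by the receptor Lgr5, and were profiled by droplet sequencing of transcript 3′ ends (10x Genomics v3 chemistry). Expansion organoids (passage 2, day 8) were kept in DMEM/F-12 with GlutaMAX, N2, B27, antibiotics, EGF, bFGF, IGF, CHIR99021, Y-27632 and LPA, with EGF at 20, bFGF at 10 and IGF at 50 ng/mL. The organoids of both differentiation groups were grown in that medium first and then moved to a differentiation medium with LY4115775, RA, A83-01, Shh, BDNF and bFGF; one group was taken on day 5, and the other on day 25, LY4115775 having been withdrawn after day 5. Each of the 3 groups was 1 library of trypsin-dissociated, DAPI-stained cells sorted as single and living. No transgene and no sort on Epcam or on a mesenchymal marker is named in the labels, nor is the number of animals or cultures. With 1 library per group there is no replicate and no test between groups: intervals below are 95% counting intervals, exact Poisson for levels and exact Clopper-Pearson for shares, and cover counting error only.

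After filtering, 25419 cells of expansion, 13156 of day 5 and 6124 of day 25 were kept, with 179528257, 131504373 and 72758996 transcripts counted by unique molecular identifiers (UMIs) and medians of 4649, 5856 and 8497 UMIs per cell. Doublets called were 9.20%, 5.01% and 2.23% of the cells that passed the filters against 23.3%, 11.6% and 5.29% expected, so doublets remain. Between 22 and 133 barcodes were shared by any pair of libraries. As a check on the labels, Lgr5 stood at 46.0, 3.64 and 14.99 counts scaled to a library total of 1000000 UMIs (CPM) and Sox2, a prosensory factor, at 3.14, 41.6 and 34.5 CPM in expansion, day 5 and day 25. Epcam-low cells (0 Epcam UMIs) were 8093 in expansion, 4908 on day 5 and 889 on day 25, or 31.8%, 37.3% and 14.5% of kept cells. Epcam-positive cells (2 or more UMIs) were 14752, 6938 and 4834, and cells with 1 UMI were put in neither class. Epcam-low cells were the shallower, with medians of 3539, 5174.5 and 5463 UMIs against 6481.5, 6736 and 9545.5.

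As background, the otic mesenchyme condenses around the growing otic epithelium, and later forms the otic capsule and the fibrocytes of the spiral ligament and limbus. POU3F4 is a POU-domain transcription factor of this mesenchyme whose loss causes X-linked deafness, and TBX18 is a T-box factor needed for the fibrocyte compartment. Otor encodes otoraplin, a small secreted protein of cochlear fibrocytes and periotic cartilage. Col1a2 and Col3a1 encode chains of fibrillar collagens I and III, Postn the matricellular protein periostin, Dcn and Bgn the small leucine-rich proteoglycans decorin and biglycan, and Mgp matrix Gla protein, an inhibitor of calcification.

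The genes lie at separate loci. Positions in GRCm38, from GENCODE M21, are chrX:110814280-110817207 for Pou3f4, chr9:87702800-87731260 for Tbx18 (minus strand), chr2:143078473-143081713 for Otor, chr6:4504814-4541544 for Col1a2, chr1:45311538-45349706 for Col3a1, chr3:54361109-54391037 for Postn, chr10:97479609-97518143 for Dcn, chrX:73483602-73495933 for Bgn and chr6:136872435-136875823 for Mgp (minus strand). Promoter sequences of RefSeq (GRCm38.p6, 250 bases before to 50 after a gene's start) were matched for 7 of the 9, and those of the 4 genes with a correlation of 0.95 or more in each pair over cell clusters are shown, since a POU and a T-box factor are among them. Capitals mark matches, on either strand, to 4 motifs: the octamer ATGCAAAT bound by POU factors, the T-box sequence AGGTGTGA, TATAAA and CCAAT. No match overlaps another in these 4.
Pou3f4 (chrX:110814129-110814428, plus strand): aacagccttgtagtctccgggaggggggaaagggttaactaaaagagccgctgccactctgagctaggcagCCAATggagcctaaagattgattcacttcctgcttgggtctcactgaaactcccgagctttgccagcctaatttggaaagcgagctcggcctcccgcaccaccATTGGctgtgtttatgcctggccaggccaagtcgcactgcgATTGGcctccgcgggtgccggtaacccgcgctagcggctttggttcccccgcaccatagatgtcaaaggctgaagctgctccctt
Tbx18 (chr9:87731211-87731510, minus strand): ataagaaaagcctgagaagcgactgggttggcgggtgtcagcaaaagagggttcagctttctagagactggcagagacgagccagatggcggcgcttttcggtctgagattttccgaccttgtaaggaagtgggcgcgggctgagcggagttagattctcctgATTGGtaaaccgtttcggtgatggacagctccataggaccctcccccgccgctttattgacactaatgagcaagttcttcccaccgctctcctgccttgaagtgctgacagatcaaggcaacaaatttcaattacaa
Otor (chr2:143078143-143078442, plus strand): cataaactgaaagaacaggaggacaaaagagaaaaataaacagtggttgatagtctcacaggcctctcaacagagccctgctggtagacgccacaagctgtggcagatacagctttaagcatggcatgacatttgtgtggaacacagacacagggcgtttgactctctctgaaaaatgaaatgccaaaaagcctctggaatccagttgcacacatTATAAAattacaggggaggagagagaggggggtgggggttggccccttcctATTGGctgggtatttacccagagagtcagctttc
Col3a1 (chr1:45311288-45311587, plus strand): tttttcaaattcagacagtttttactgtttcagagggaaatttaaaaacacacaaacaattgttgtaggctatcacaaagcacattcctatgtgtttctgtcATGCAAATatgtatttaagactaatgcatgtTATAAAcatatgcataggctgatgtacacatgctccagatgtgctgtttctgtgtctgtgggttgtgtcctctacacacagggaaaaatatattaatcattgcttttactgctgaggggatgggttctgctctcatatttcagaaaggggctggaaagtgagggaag

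The octamer was found in Col3a1 alone among the 7, 148 bases before the start, and in 1.74% of 32851 mouse promoters of that length. The T-box letters were in none of the 7 and in 1.28% of all. TATAAA, in 13.6% of promoters, lay 35 bases before the start of Otor and 117 before that of Col3a1. CCAAT or its complement, in 37.4% of promoters, was present 3 times in Pou3f4 and once each in Tbx18 and Otor. The promoters shown therefore hold no motif of the 4 in common, and a match is a description of letters, not a bound site.

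The data divided the 9 genes. Pou3f4, Tbx18, Otor, Col3a1, Postn and Bgn were held by Epcam-low cells, Dcn by Epcam-positive cells in all 3 libraries, Mgp by both classes, and Col1a2 was scarce in both. The values therefore do not bear out the name otic mesenchyme for all 9. A higher level in Epcam-low cells sets the first 6 apart from the Epcam-positive class, but does not by itself show otic mesenchyme. Of the 6, Postn and Bgn were scarce in expansion. The split was made after the values were seen, so the common direction of the 6 is a description. A gene was counted when CPM + 1 differed 2-fold between the classes and 1 of them had 20 CPM or more. In expansion 4 of the 6 measured members were higher in Epcam-low cells (3.7% of all 5679 genes were) and 2 in Epcam-positive cells (11.7%). On day 5 the counts were 5 (9.95%) and 1 (10.6%) of 7, and on day 25 they were 6 (8.69%) and 2 (11.9%) of 8. The median log2 ratio over the measured members was 3.88, 4.54 and 5.32, beside -0.18, 0.10 and 0.01 over all genes. The unit of these levels is UMIs of the 3′ end without length scaling, so no level is compared between genes.

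**Figure D1:**
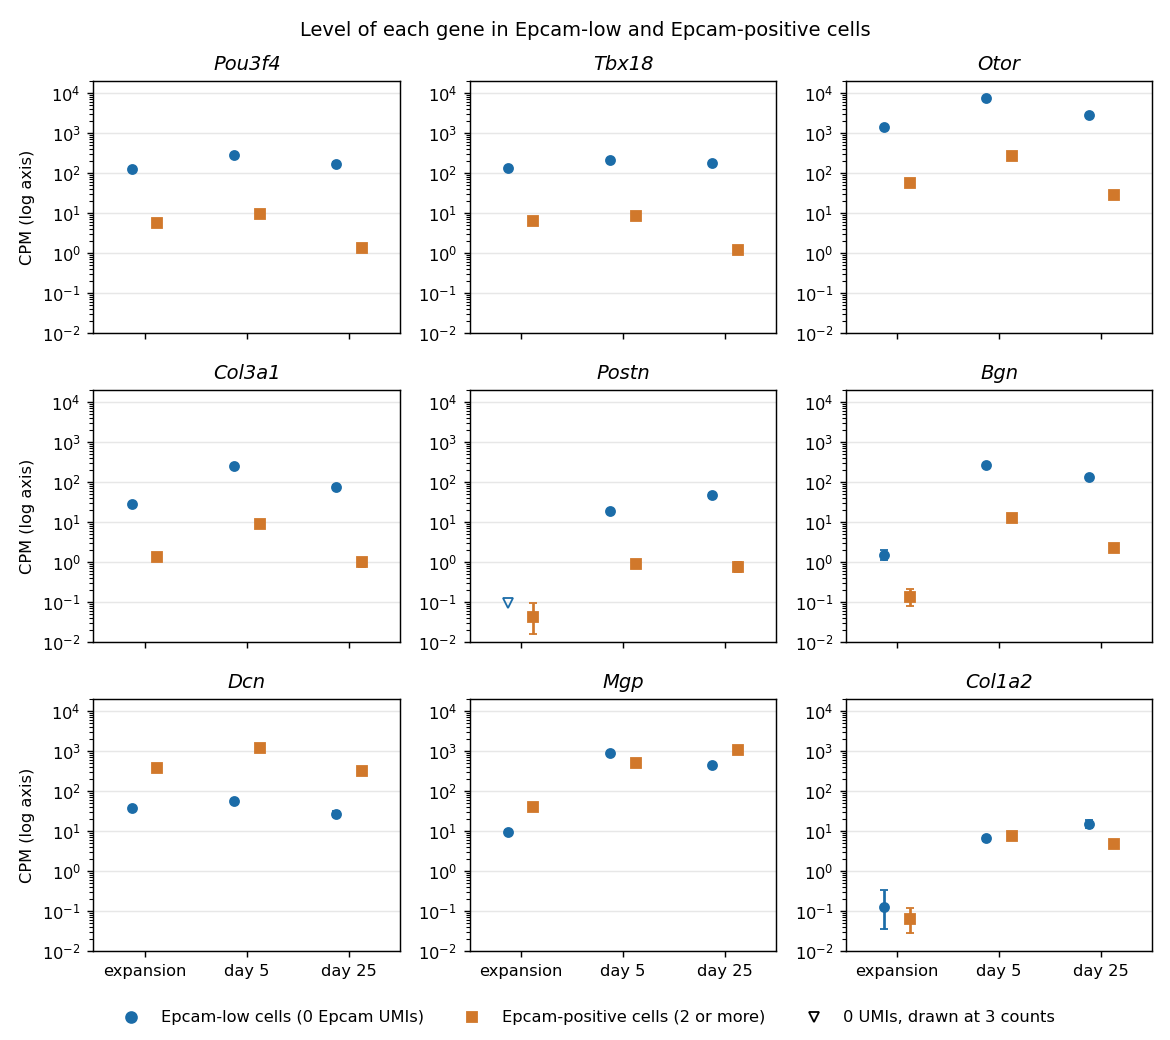
Level of each gene in CPM (log axis) in Epcam-low cells (circles) and Epcam-positive cells (squares) of the 3 libraries, with 95% Poisson intervals; an open triangle marks 0 UMIs and is drawn at 3 counts. The first 6 panels have the circle above the square wherever it was detected, Dcn has it below in every library, and Mgp and Col1a2 have no fixed order.

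Pou3f4 had 124 CPM in Epcam-low cells of expansion, 277 on day 5 and 174 on day 25, against 5.53, 9.67 and 1.35 in Epcam-positive cells. The ratio was 22.4 (20.7 to 24.2), 28.7 (26.8 to 30.7) and 128.7 (103.4 to 162.0). Tbx18 had 133, 218 and 179 CPM in Epcam-low cells against 6.56, 8.38 and 1.19, ratios of 20.2, 26.0 and 151.1. Both factors had the widest ratio on day 25, where their level in Epcam-positive cells was lowest. Otor had 1457, 7751 and 2807 CPM in Epcam-low cells against 55.9, 272 and 28.7 in Epcam-positive cells, ratios of 26.1, 28.5 and 97.8. Its Epcam-low level was highest on day 5, as for both factors.

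Among the matrix genes, Col3a1 had 27.8, 247 and 75.6 CPM in Epcam-low cells and 1.33, 9.22 and 0.989 in Epcam-positive cells. Bgn was near the floor in expansion, with 47 UMIs in all Epcam-low cells (1.54 CPM), and reached 263 CPM on day 5 and 133 on day 25, 20.3 and 59.3 times its level in Epcam-positive cells. Postn was not found in Epcam-low cells of expansion, where a floor of 3 counts in 6468 thinned cells limits the share of cells with a UMI, not of cells expressing the gene, to 0.0464%. It had 18.8 CPM there on day 5 and 46.8 on day 25, against 0.892 and 0.761 in Epcam-positive cells. The collagen III chain was thus present with the factors from expansion on, while biglycan and periostin were at or near 0 in that library.

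Dcn went the other way. Epcam-positive cells had 389, 1178 and 321 CPM of it in expansion, day 5 and day 25, and Epcam-low cells had 38.8, 58.4 and 26.5 CPM. The level in Epcam-positive cells was 10.0 (9.47 to 10.6), 20.2 (19.2 to 21.2) and 12.1 (10.2 to 14.5) times as high, and those cells held 95.3% of the Dcn UMIs of expansion. Lum, which encodes lumican, another small leucine-rich proteoglycan, had the same order with 35.9 against 289, 82.7 against 1083 and 18.7 against 803 CPM. Lum is also on the list of mesenchyme markers used below.

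Mgp had no fixed class. It was 4.24 times as high in Epcam-positive cells of expansion (40.5 against 9.56 CPM) and 2.31 times on day 25 (1069 against 462 CPM), while on day 5 Epcam-low cells had 897 CPM and Epcam-positive cells 495, a ratio of 1.81 (1.78 to 1.84). Col1a2 had 13 UMIs in the whole expansion library. On day 5 it had 6.71 CPM in Epcam-low and 7.73 in Epcam-positive cells, a ratio of 0.868 (0.733 to 1.02), and on day 25 15.5 against 4.87. Col1a1, its partner chain in collagen I and a defining marker of mesenchyme, had 0, 0.461 and 0 CPM in Epcam-low cells with 3 or more of the 9 genes. Col1a2 itself had 21.4 CPM (16.9 to 26.8) on day 25, in 8.96% of the Epcam-low cells with at least 2 of the 6 genes.

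To ask whether the genes were found in the same cells, each cell was thinned to 2000 UMIs and shallower cells were left out (1625, 1155 and 116 Epcam-low and 454, 282 and 172 Epcam-positive cells). At least 3 of the 9 genes were found in 7.53% (6.90 to 8.20) of Epcam-low cells in expansion, 62.4% (60.8 to 63.9) on day 5 and 27.2% (24.1 to 30.5) on day 25. Epcam-positive cells with as many were 0.622%, 11.4% and 0.944%. The 11.4% of day 5 came largely with Dcn and Mgp: with 3 or more of the 6 other than Dcn, Mgp and Col1a2 counted, a set chosen after the data were seen, the shares were 6.34%, 44.3% and 20.3% of Epcam-low and 0.168%, 1.35% and 0.343% of Epcam-positive cells. Without thinning, the 9-gene shares were 21.04%, 73.6% and 48.4% of Epcam-low and 7.08%, 51.2% and 4.26% of Epcam-positive cells.

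**Figure D2:**
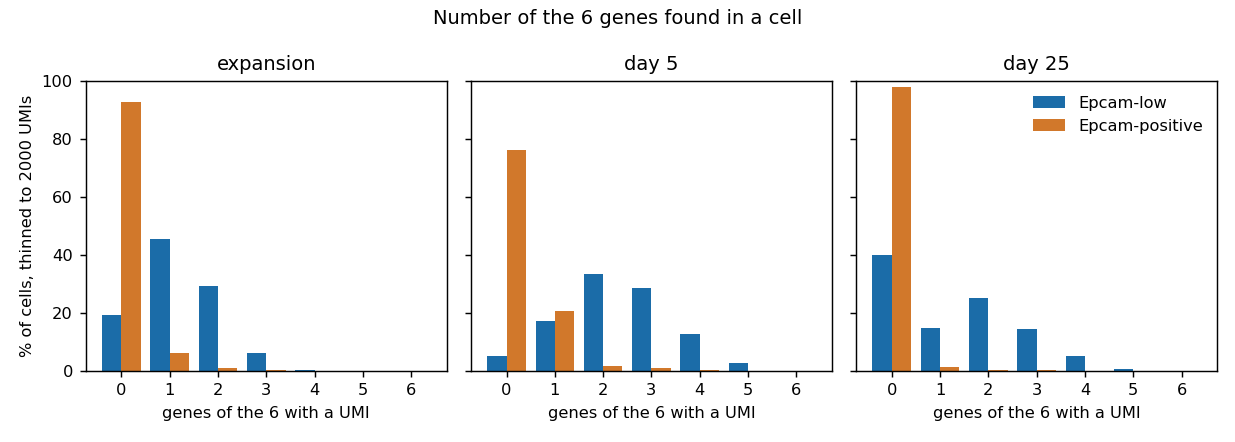
Percentage of cells (vertical axis) by how many of Pou3f4, Tbx18, Otor, Col3a1, Postn and Bgn had a UMI after thinning to 2000 UMIs, for Epcam-low (blue) and Epcam-positive cells (orange). Epcam-positive cells pile up at 0 in each library (92.7% in expansion), and Epcam-low cells of day 5 centre on 2 and 3 genes (33.5% and 28.7%).

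Gene by gene, Otor was in 74.4% of thinned Epcam-low cells of expansion, 93.7% on day 5 and 55.9% on day 25, against 6.12%, 21.1% and 1.42% of Epcam-positive cells. Pou3f4 was in 20.7%, 40.3% and 22.3% of Epcam-low cells and in 0.979%, 1.68% and 0.343% of Epcam-positive cells. Tbx18 was in 22.6%, 32.3% and 21.5% of Epcam-low cells and in 1.29%, 1.56% and 0.193% of Epcam-positive cells. Each of the 3 therefore marked Epcam-low cells far more often at equal depth. Dcn was in 5.63%, 9.49% and 3.62% of Epcam-low cells and in 45.4%, 84.1% and 31.4% of Epcam-positive cells. Mgp was in 45.0% of the Epcam-low and 45.5% of the Epcam-positive cells of day 5, although its CPM differed there.

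In Epcam-low cells, pairs of the 6 genes were found together more often than the product of their shares in each pair common enough to compute, by 1.05 to 1.38 times in expansion (9 of 9 pairs), 1.01 to 1.41 on day 5 (15 of 15) and 1.31 to 2.04 on day 25 (15 of 15). In Epcam-positive cells, where the genes were rare, the ratio was higher: 7.95 to 8.99 over the 2 pairs that could be computed in expansion and 2.69 to 3.64 over 4 pairs on day 5, with none on day 25. Among Epcam-low cells, Pou3f4 and Tbx18 shared 352 cells of expansion, 532 of day 5 and 60 of day 25, 1.16, 1.09 and 1.62 times the product. Otor was found in 98.9% of the Pou3f4 cells and 99.0% of the Tbx18 cells of day 5, in 84.0% and 84.7% of those of expansion, and in 90.7% and 92.8% of those of day 25. A cell with either factor thus nearly always held Otor on day 5, but so did most Epcam-low cells. Of all thinned Epcam-low cells, Otor was in 74.4% in expansion, 93.7% on day 5 and 55.9% on day 25. Col3a1 and Postn had the highest ratio in both differentiation libraries, 1.41 on 53 shared cells and 2.04 on 11. Dcn paired with the 6 at 0.378 to 0.681 times the product in expansion (0 of 4 pairs above 1), 0.825 to 1.31 on day 5 (1 of 6) and 0.635 to 1.89 on day 25 (2 of 5).

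The Epcam-low class was a mixture, and its makeup differed between libraries. Clusters formed without the 9 genes and without Epcam put 73.5%, 82.0% and 54.2% of Epcam-low cells into 5 clusters with 50 CPM or more of Pou3f4 and low Epcam. Hair cell-like clusters, each with 10 or more of 12 hair cell markers at 4-fold or more over the other cells, took 0.939%, 11.3% and 43.4%. A shallow cluster of expansion, led by Cdk1 and Ube2c with a median of 1694 UMIs, took 19.8% of that library's Epcam-low cells. The part of this mixture in the pair ratios was not tested.

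Epcam-low cells with none of the 9 genes, 1655, 392 and 307 before thinning, differed from the 1703, 3614 and 430 cells with 3 or more in depth as well as in genes. Their medians were 1678, 1328.5 and 2963 UMIs against 4761, 5923 and 7324. On day 5 they held 15086 CPM of Pcp4 and 1316 of Pvalb, both genes of hair cells, against 73.4 and 5.91 CPM in cells with 3 or more members. On day 25 Ocm, the hair cell calcium buffer oncomodulin, had 5662 against 39.6 CPM. Cells with 3 or more members had 108 CPM of Twist1, a mesenchymal bHLH factor, on day 5 and 257 on day 25, where cells with none had 0 UMIs of it; in expansion they had 49.2 against 9.83 CPM. They also led with Efemp1, Emilin2 and Vcam1 on day 5 and with Emilin2, Apod, Kcnk2 and Timp3 on day 25, and with Lpar1, Zic5 and Emcn in expansion.

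Of 12 mesenchyme markers, 3 (Twist1, Prrx1 and Foxc1) had 20 CPM or more in expansion cells with 3 or more members, 7 on day 5 and 8 on day 25, with summed levels of 239, 609 and 915 CPM. In expansion the cells with no member and the Epcam-positive cells also had 3 markers at that level (Lum, Prrx1 and Foxc1), so the count does not set the member cells apart there; on day 5 those classes had 1 and 3, and on day 25 1 and 2. Pdgfrb and Pdgfra, receptors of mesenchymal cells, were under 20 CPM in expansion and over it in both differentiation libraries: Pdgfrb had 3.86, 93.5 and 135 CPM and Pdgfra 4.83, 25.7 and 64.1 CPM in those cells. Foxc1, a forkhead factor, had 101, 136 and 227 CPM. The 12 markers summed to 383, 1172 and 869.7 CPM in Epcam-positive cells, of which Lum gave 289, 1083 and 803. Epithelial markers (8 genes) summed to 32.0, 24.0 and 64.7 CPM in the cells with 3 or more members and to 486 CPM in Epcam-positive cells of expansion. Macrophage markers summed to at most 5.07 CPM and erythroid markers to at most 1.19 CPM in the cells with 3 or more members, while the 8 endothelial genes summed to 613, 689 and 732 CPM, with Emcn alone at 20 CPM or more in expansion, Kdr and Emcn on day 5, and Emcn and Egfl7 on day 25. The 8 chondrocyte markers summed to 191, 1080.4 and 484 CPM in these cells, with 3, 5 and 4 genes at 20 CPM or more, and to 973, 3674 and 1359 CPM in Epcam-positive cells. In the cells with 3 or more members, supporting cell markers summed to 376, 438 and 725 CPM. Hair cell markers summed to 82.4, 208 and 450 CPM there, and neuronal markers to 12.5, 195 and 148 CPM. Greater epithelial ridge markers summed to 16.5, 229 and 161 CPM, and lateral epithelium markers to 47.2, 118 and 189 CPM. Pericyte and smooth muscle, glial and melanocyte markers each summed to at most 77.5 CPM. The part of these lists in the results was not tested.

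The second part of the rule asked how much of each gene appeared in Epcam-positive cells. As a reference, each gene was measured in Epcam-low cells that held at least 2 of the other genes among the 6, and its level in Epcam-positive cells was written as a percentage of that. For the members of the 6 this came to 3.30% to 7.96% in expansion (median 4.11%, 5 genes), 3.28% to 4.63% on day 5 (3.56%, 6 genes) and 0.490% to 1.24% on day 25 (0.842%, 6 genes). Otor, the gene with most UMIs, had 3.30% (3.21 to 3.39), 3.28% (3.23 to 3.32) and 0.716% (0.682 to 0.751). Bgn was the highest of the 6 in each library (7.96% on few UMIs, 4.63% and 1.24%). On day 25 its interval (1.03 to 1.48) did not overlap that of Tbx18, the lowest (0.490%, 0.384 to 0.619), so the percentages were not the same for all 6. Postn had no value in expansion. Dcn had 2317%, 2829% and 1189%, Mgp 667%, 52.6% and 176%, and Col1a2 60.5% (12.5 to 575), 109% and 22.7%. The percentages of Dcn, Mgp and Col1a2 lay above the range of the 6 in each library. Because the 6 were picked after the class levels were seen, this order was in part fixed by the choice. For Col1a2 in expansion the value rested on 2 UMIs in the reference cells, and its interval overlapped that of Bgn (4.26 to 14.5).

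**Figure D3:**
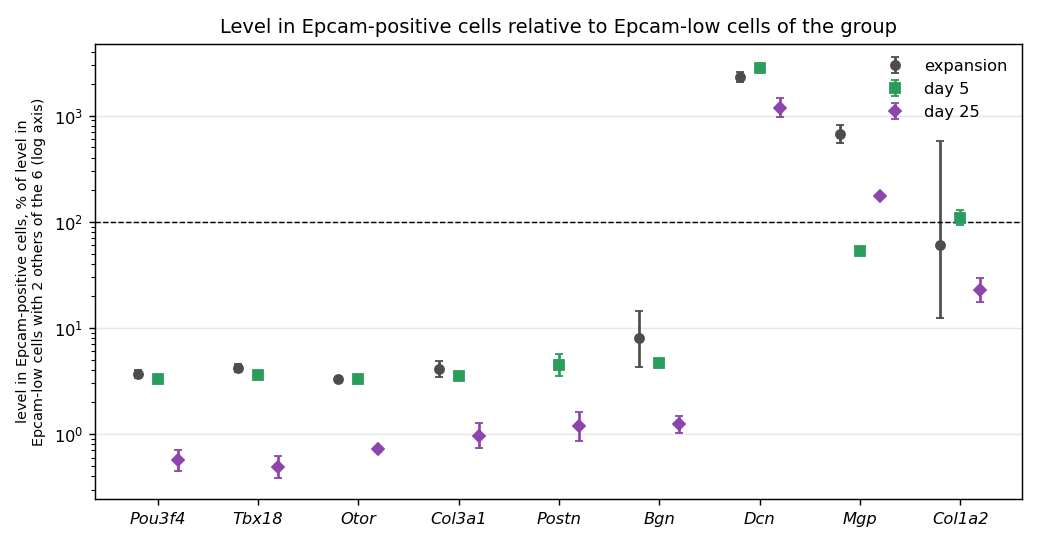
Level in Epcam-positive cells as a percentage (log axis) of the level in Epcam-low cells holding at least 2 others of the 6 genes, for each gene and library, with 95% counting intervals; the dashed line is 100%. The 6 genes on the left, Postn having no point in expansion, sit at 3.28% to 7.96% in expansion and on day 5 and at 0.490% to 1.24% on day 25, and Dcn lies at 1189% or more throughout.

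Part of that level sat in few cells, which were picked by the genes themselves, so their shares of these genes' UMIs are in part fixed by the choice. Epcam-positive cells with 4 or more of the 6 genes numbered 45 in expansion, 181 on day 5 and 29 on day 25 (0.305%, 2.61% and 0.600%), and held 18.1%, 68.6% and 57.3% of the Pou3f4 UMIs of Epcam-positive cells. For Otor they held 13.3%, 55.5% and 70.1%, and for Dcn 0.223%, 1.91% and 0.128%. Without them, Pou3f4 stood at 4.56, 3.17 and 0.581 CPM in Epcam-positive cells and Otor at 48.8, 126 and 8.62 CPM, while Dcn stood at 390.1, 1206 and 322. Such cells were deep in expansion and on day 5, with medians of 16571 and 13764 UMIs against 6481.5 and 6736 for all Epcam-positive cells, and not on day 25 (8370 against 9545.5). Among the Epcam-positive barcodes removed as called doublets, 2.46%, 51.3% and 12.8% held 4 or more of the 6. How much of the level in Epcam-positive cells came from doublets, free RNA or the cells themselves was not tested.

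Over the 4 clusters of day 5 with high Epcam, Pou3f4 ran from 3.16 to 4.37 CPM, Tbx18 from 3.64 to 4.22, Col3a1 from 3.11 to 3.97 and Otor from 109 to 219. Their highest values were 1.38, 1.16, 1.28 and 2.00 times their lowest, and those of Bgn and Postn 1.94 and 2.99 times. No interval was computed for these spreads. The top Postn value was only 1.04 CPM, in cluster 6, where 0.180% of 555 day 5 cells held a UMI of it. Over the same clusters Col1a2 ran from 5.19 to 11.5 CPM, Mgp from 391 to 896 and Dcn from 793 to 1416, spreads of 2.21, 2.29 and 1.79 times. The spreads of the 6 genes and of the other 3 thus overlapped. On day 25, 8 clusters were high in Epcam. Pou3f4 reached at most 0.895 CPM in them and Otor 3.64, while Dcn ran from 18.4 to 815 CPM and Mgp from 57.2 to 3113. In expansion Pou3f4 lay between 2.22 and 4.51 CPM in 3 of the 4 such clusters, and at 90.9 CPM in cluster 1. That cluster of 137 expansion cells had 444 CPM of Epcam and 1099 CPM of Otor at once.

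**Figure D4:**
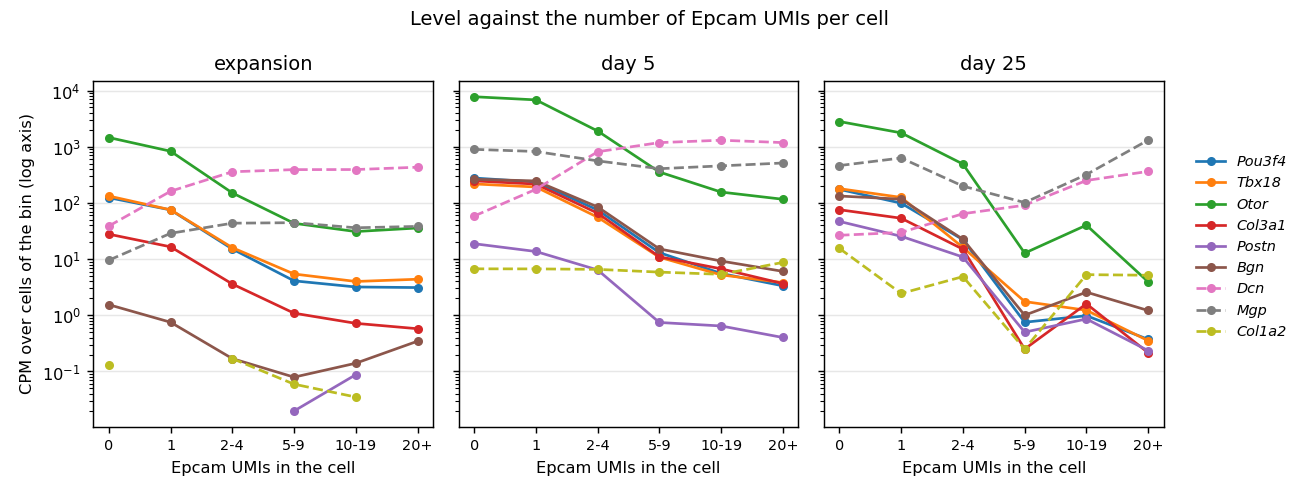
CPM of each gene (log axis) over cells binned by their number of Epcam UMIs, for the 3 libraries; solid lines are the 6 Epcam-low genes, dashed lines Dcn, Mgp and Col1a2, and a bin with 0 UMIs has no point. Pou3f4 goes from 277 CPM at 0 Epcam UMIs to 3.34 at 20 or more on day 5, while Dcn goes from 58.4 to 1185.

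Levels also followed the count of Epcam UMIs per cell. Pou3f4 on day 5 had 277, 236, 74.8, 13.04, 5.55 and 3.34 CPM in cells with 0, 1, 2 to 4, 5 to 9, 10 to 19 and 20 or more Epcam UMIs. Dcn over the same bins had 58.4, 175, 814, 1184, 1305 and 1185 CPM. Cells with 1 Epcam UMI were thus near the Epcam-low level for Pou3f4 on day 5, and in expansion they had 75.1 CPM against 124. Mgp on day 25 was lowest in the middle, with 101 CPM at 5 to 9 Epcam UMIs, 462 at 0 and 1310 at 20 or more.

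The next comparison set the libraries side by side, first over all kept cells. In such sums fewer cells of a type and less RNA per cell cannot be told apart. Of the 7 measured members, 6 were higher on day 5 than in expansion (15.2% of all genes were) and 0 lower (7.89%), 0 of 7 were higher on day 25 than on day 5 (21.1%) and 6 lower (5.82%), and 1 of 5 was higher on day 25 than in expansion (33.4%) and 0 lower (9.23%). Both comparisons with day 5 share that library. Pou3f4 had 29.2, 76.5 and 15.9 CPM in expansion, day 5 and day 25, Tbx18 31.5, 61.0 and 16.9, Otor 334, 2151 and 267, Col3a1 6.60, 68.8 and 7.56, and Bgn 0.407, 76.7 and 14.4. For these 5 genes day 5 was the high library. Mgp had 34.7, 595 and 1015 CPM and was the one member among the 5 measured above 2-fold on day 25 against expansion, 29.3 times (28.5 to 30.1). Bgn was 35.3 times (27.8 to 45.4) its expansion level on day 25 but had under 20 CPM in both libraries and so was not counted. Dcn had 318, 895 and 293 CPM, Col1a2 0.0724, 7.47 and 5.53, and Postn 0.0334, 5.22 and 4.60. Day 5 was the high library for these as well, though Postn on day 25 was 0.881 times (0.771 to 1.01) its day 5 level. Tbx18 on day 5 was 1.94 times (1.87 to 2.00) its expansion level, just under the bound.

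Scaling moved these comparisons. The median log2 ratio of all genes was 0.18, 0.31 and 0.51 for day 5 against expansion, day 25 against day 5 and day 25 against expansion, and -0.18, 0.00 and -0.20 with scaling by trimmed means of M-values (TMM). The counts of genes higher and lower then changed from 978 and 507 to 636 and 938, from 1516 and 418 to 912 and 776, and from 2433 and 673 to 1226 and 1624. Pou3f4 and Tbx18, at -0.84 and -0.86 (log2) on day 25 against expansion, came to -1.41 and -1.44 with TMM and so passed 2-fold.

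Within Epcam-low cells alone, a comparison added after the data were seen, 5 of 7 measured members were higher on day 5 than in expansion (20.9% of all genes) and 0 lower (5.07%). Pou3f4 was 2.24 times, Otor 5.32, Col3a1 8.88, Bgn 171 and Mgp 93.9 times its expansion level, while Tbx18 was 1.64 times and Dcn 1.51 times, both under 2-fold. Postn, with 0 UMIs in expansion, was 191-fold higher when set against a floor of 3 counts over that class. The exact 95% interval of its ratio began at 154. Col3a1, Bgn and Mgp thus differed by more than either factor, and Dcn by less. From day 5 to day 25, 1 of 8 members was higher (16.5%) and 3 were lower (4.66%). Postn was 2.49 times (2.12 to 2.92) its day 5 level, whereas Otor was 2.76, Col3a1 3.26 and Dcn 2.20 times lower. Pou3f4 and Tbx18 had 0.628 and 0.824 of their day 5 level, where over all cells they had 0.208 and 0.276. Against expansion, 4 of 8 members were higher on day 25 (38.2%) and 0 lower (6.74%). Col3a1 was 2.72, Bgn 85.9 and Mgp 48.3 times its expansion level. Postn was 475-fold higher when set against the same floor, with an exact interval from 383. Hair cell-like cells made up 43.4% of the day 25 and 0.939% of the expansion Epcam-low class, and their part in these ratios was not tested. Within this class the median log2 ratio of all genes was 0.40 for day 5 against expansion. It was 0.23 for day 25 against day 5 and 0.68 for day 25 against expansion. Pou3f4, at a log2 ratio of 1.16 on day 5 against expansion, was near the 2-fold bound. No other scaling was tried within the class.

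In Epcam-positive cells, 3 of 9 members had 20 CPM or more in any pair of libraries, namely Otor, Dcn and Mgp. All 3 were higher on day 5 than in expansion (14.6% of genes), and from day 5 to day 25 Mgp was higher (22.8%) and Otor and Dcn lower (5.66%). Against expansion, 1 of the 3, Mgp, was higher on day 25 (31.6%). The median log2 ratio of all genes in Epcam-positive cells was 0.10, 0.35 and 0.47 for these comparisons in turn. Mgp on day 25 against day 5, at 1.11, was near the bound. The level of Otor in those cells, 55.9, 272 and 28.7 CPM, had the order of its level in Epcam-low cells for day 5 but not between expansion and day 25.

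Cells within the group did not share the genes evenly. Among Epcam-low cells with at least 2 others of the 6, the 156, 327 and 42 cells highest in Otor, of 1552, 3269 and 411, held 30.4%, 30.1% and 33.2% of its UMIs. For Mgp the 382 highest of 3818 cells held 68.9% on day 5, with up to 449 UMIs in a cell and a median of 1, and the 47 highest of 469 held 86.9% on day 25. Postn on day 25 had 80.3% of its UMIs in 47 of 466 cells and was found in 19.3% of those cells. Pou3f4 was found in 45.8%, 73.4% and 73.9% of such cells and Tbx18 in 48.1%, 67.2% and 73.7%. The same share of cells held 31.8% of the Tbx18 UMIs on day 25 and 40.2% and 35.9% in expansion and on day 5, so Otor was the more evenly spread of these in expansion and on day 5 but not on day 25. These shares also rise as a gene's count falls.

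Over the 25 clusters of at least 50 cells, the 6 genes peaked where Epcam was under 25% of its all-cell level of 1301 CPM. Clusters 0 and 7 held Pou3f4, Tbx18, Otor and Col3a1 in expansion (2848 and 4321 cells of that library, with Aard, St8sia1 and Emcn among their leading genes), clusters 13 and 8 held all 6 on day 5 (4283 and 727 cells, with Cdh6 and Vcam1 in both), and cluster 24 on day 25 (634 cells, led by Apod and Saa3). Of the 12 mesenchyme markers, 7 were 4-fold or more over all other cells in cluster 24 and 3 each in clusters 13 and 8, while clusters 0 and 7 had none. Cluster 24 can be called mesenchyme-like from these 7, but not every marker went that way. Col1a1 had 0 and Lum 22.2 CPM in it. The supporting cell, greater epithelial ridge, lateral epithelium, pericyte and smooth muscle, endothelial and neuronal lists each had 1 marker at 4-fold there. Clusters 0 and 7 go by number for want of mesenchyme markers. Clusters 13 and 8 do too, since 2 endothelial and 2 neuronal markers stood beside the 3, and the day 5 cells of cluster 8 were shallow, with a median of 1614 UMIs against 6247 for those of cluster 13. Clusters 0 and 7 held 48.7% and 40.8% of the Pou3f4 UMIs of expansion, clusters 13 and 8 held 92.4% and 4.01% of those of day 5, and cluster 24 held 96.03% of those of day 25. Each such cluster came almost wholly from 1 library, so a cluster and its library cannot be told apart.

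**Figure D5:**
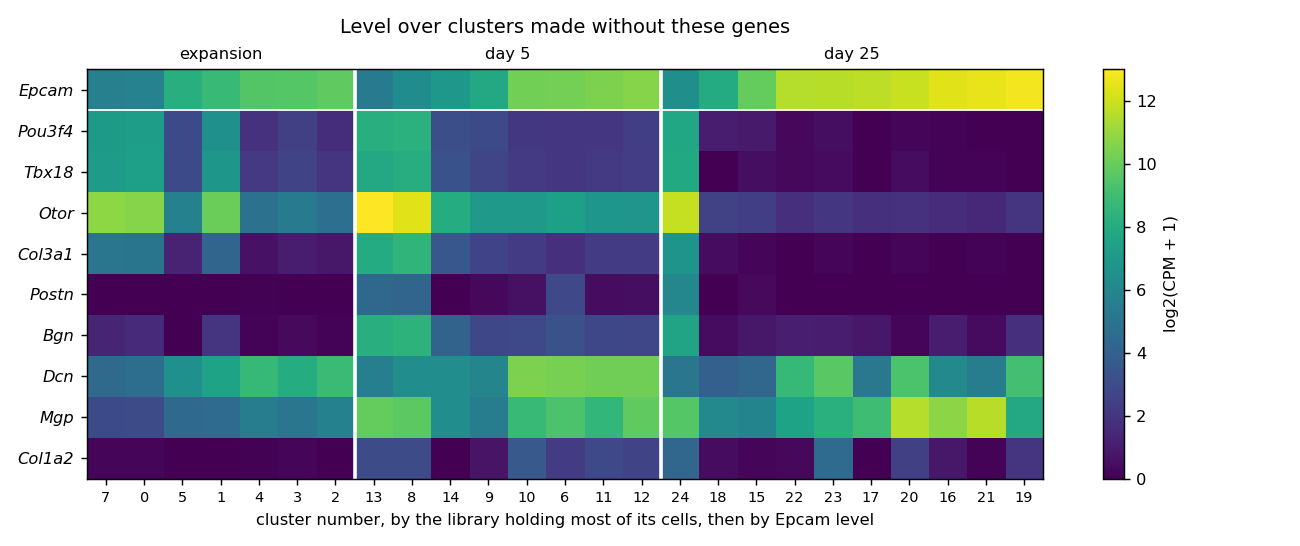
Level of Epcam and the 9 genes as log2(CPM + 1) (colour) in 25 clusters made without these genes, ordered within each library by Epcam level. Pou3f4, Tbx18, Otor and Col3a1 are brightest in the clusters at the left of each block (7 and 0, 13 and 8, and 24), Postn and Bgn in those of day 5 and day 25, and Dcn and Mgp are bright in clusters with high Epcam.

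The remaining members peaked elsewhere. Dcn was highest in cluster 10 of day 5 (1416 CPM, with 1202 CPM of Epcam), led by Crabp1 and Rasgrf1 and with 3 markers of the greater epithelial ridge at 4-fold or more. Mgp was highest in cluster 21 of day 25 (3113 CPM, Epcam 6143), led by Prss22 and Otol1. Clusters 21, 20 and 16 held 39.5%, 23.2% and 21.5% of the Mgp UMIs of day 25, against 5.19% in cluster 24. Col1a2 was highest in cluster 23 of day 25 (22.6 CPM, Epcam 3146), which held 58.96% of its UMIs in that library, against 18.8 CPM in cluster 24. This place depended on the resolution of the clusters. At Leiden resolution 0.5 Col1a2 was highest in a low-Epcam cluster (18.8 CPM, Epcam 89.6). At resolution 2 it was highest in a high-Epcam cluster again (23.0 CPM, Epcam 3051).

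Likeness over the 25 clusters was taken as Pearson's r of log2(CPM + 1). These values are descriptions, since clusters of 1 library share its depth and background. Pou3f4 and Tbx18 had r = 0.99 with each other, 0.96 each with Otor, and 0.96 and 0.95 with Col3a1. Their nearest genes outside the 9 were the same for both: Emcn (endomucin, 0.99 with either), Emilin1 (an elastic fibre glycoprotein) and Ifitm1. Otor was nearest to Tgfbi (0.99), Ifitm1 and Nov, and Col3a1 to Cdh6 (0.99), Kcnk2 and Adgra2. Bgn and Postn had 0.89 with each other, and their nearest genes were Aqp1 (0.96) and Tnfsf8 (0.95). Dcn was nearest to Lum (0.93), Tmem229b and Col9a3, Mgp to Exoc3 (0.92), and Col1a2 to Scara5 (0.89). The correlations of Pou3f4 with Dcn and Mgp were -0.36 and -0.27.

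Other genes of the pathway were read from 6 lists, by the same 2-fold count of Epcam-low against Epcam-positive cells. These lists, too, were chosen with earlier results of these data known. Over all genes, 3.7%, 9.95% and 8.69% were higher in Epcam-low cells of expansion, day 5 and day 25. Those lower were 11.7%, 10.6% and 11.9%, and every list count below is to be read beside these shares. Of 24 mesenchymal transcription factors, 5 of the 10 measured were higher in Epcam-low cells of expansion and 2 lower, 8 and 2 of 12 on day 5, and 7 and 1 of 11 on day 25, with median log2 ratios of 1.07, 2.04 and 2.96. Zeb2, a zinc finger factor of mesenchymal cells, had 45.0 against 2.00, 186 against 7.21 and 210 against 2.65 CPM. Twist1 had 42.3 against 4.30, 101 against 7.72 and 189 against 4.52 CPM. Of 20 genes of cochlear fibrocytes and limbus, 4 of 7, 9 of 15 and 10 of 15 were higher in Epcam-low cells and 2, 5 and 5 lower. Emilin2 had 233 against 10.4, 814 against 30.4 and 1143 against 9.26 CPM, and the potassium channel gene Kcnk2 had 84.0 against 4.06, 550 against 19.3 and 389 against 2.42. Gjb2 and Atp1b1 of that list were lower in Epcam-low cells of expansion, 22.4 against 191 and 10.9 against 84.4 CPM; both are also expressed by cochlear epithelium. Apod, encoding the lipid carrier apolipoprotein D, had 3147 against 27.2 CPM on day 25.

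Of 21 genes for collagens and their processing, 0 of 6 measured were higher in Epcam-low cells of expansion and 2 lower, against 6 and 1 of 14 on day 5 and 7 and 3 of 15 on day 25. Lox, the collagen crosslinking oxidase, had 104 against 8.25 CPM on day 5 and 146 against 5.95 on day 25, and Col5a2 had 46.1 against 1.67 and 38.0 against 0.502. Sparc, encoding a collagen-binding matricellular protein, had 346 against 1753 CPM in expansion. Of 24 proteoglycan and matricellular genes, 4 of 8, 8 of 14 and 5 of 14 were higher and 3, 3 and 4 lower. Tgfbi had 398 against 17.3, 1442 against 57.5 and 996 against 9.43 CPM. Among 16 receptors of collagen and periostin, 1 of 8, 4 of 10 and 4 of 10 were higher and 5, 3 and 3 lower. Ddr2, a receptor kinase for fibrillar collagen, had 21.8 against 1.07, 99.9 against 3.804 and 222 against 7.67 CPM, whereas its relative Ddr1 had 4.34 against 20.0 in expansion. Of 12 genes of mineralisation, 1 of 2, 3 of 6 and 1 of 6 were higher and 1, 1 and 0 lower. Counts of 1 gene, as here and for the receptors in expansion, are too small to tell from the shares over all genes. Spp1, encoding osteopontin, had 905 against 60.4 CPM on day 5.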

How the data were processed

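Gene-by-cell count matrices of 3 libraries, 1 per group, were deposited by the authors as UMI counts; per the file headers they came from Cell Ranger 3.0.1 (expansion, day 5) and 3.1.0 (day 25). The submitters' processing notes name GRCm38 and hg38; the gene identifiers are of mouse. The members and all lists were chosen with earlier results of these data known. Cells with 500 or more genes and at most 20% mitochondrial UMIs were kept, and doublets were called at 0.8% per 1000 cells. Counts were summed per library and Epcam class and scaled to CPM. A gene counted as higher or lower at 2-fold of CPM + 1 with 20 CPM or more in either group; no p-value was computed. On simulated counts of 31053 genes, this rule called all genes changed 3-fold or 5-fold and 0 of 67 changed 1.5-fold. Those counts held counting error only, so at these depths a 2-fold bound could hardly give another outcome. The simulation checks the code and says nothing of variation between cultures. Comparisons of libraries within an Epcam class were not simulated. Clusters came from 2000 variable genes without the members and Epcam, 30 components, 15 neighbours and Leiden resolution 1 (scanpy 1.11.5, igraph 0.11.9, Python 3.11.15), and TMM factors from edgeR 4.0.16. Named genes are the 9 members and Epcam, up to 4 per list and comparison with the largest ratio, the 3 most like each member, and the 10 in each direction between Epcam-low cells with 3 or more members and with none. Alternatives were other scalings, filters, thinning depths, Epcam bounds, resolutions, and keeping doublets.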

Additional observations from a re-analysis of the deposited data

Results flagged for a closer look

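Mgp stood out because the order of the Epcam classes was opposite between libraries. Its level in Epcam-low cells divided by that in Epcam-positive cells was 0.236 in expansion and 0.432 on day 25, but 1.81 on day 5. With 1 library per group the difference between libraries was not tested.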

How the results depend on the processing

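No called ratio of a member changed direction under any setting tried (257 ratios, 0 reversed), but the largest shift was 2.35 on the log2 scale. No paired analysis was possible because each group held 1 library. With TMM or median-of-ratios scaling, 2 members in place of 0 were lower on day 25 than in expansion, and with a filter at 1 CPM 4 in place of 1 were higher. Within Epcam-low cells, 1 member was higher and 3 lower on day 25 than on day 5, and 4 were higher on day 25 than in expansion. Within Epcam-positive cells, 3 were higher on day 5 than in expansion, and 1 was higher and 2 lower on day 25 than on day 5. Shares of cells with 3 or more members moved with depth. In Epcam-low cells of expansion, day 5 and day 25 they were 1.97%, 30.8% and 11.5% at 1000 UMIs, 25.4%, 90.03% and 56.7% at 4000, 21.04%, 73.6% and 48.4% without thinning, and 6.34%, 44.3% and 20.3% over the 6 genes. In Epcam-positive cells they were 0.177%, 3.85% and 0.375% at 1000 UMIs, 2.13%, 25.2% and 1.92% at 4000, 7.08%, 51.2% and 4.26% without thinning, 0.375%, 10.2% and 0.650% with 5 or more Epcam UMIs required, and 0.168%, 1.35% and 0.343% over the 6 genes. With called doublets kept they were 1.59% in expansion and 14.9% on day 5. The comparisons within an Epcam class and the 6-gene set were chosen after seeing the data.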
